A study of Mus musculus with 2 samples.

Results

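The genes of zinc and copper handling were examined in 2 mouse melanoma lines, as a group of 35 among the 23284 gene symbols measured. The group was chosen by name: the Slc30a and Slc39a families of zinc transporters (10 and 14 genes), the copper importer genes Slc31a1 and Slc31a2, the metallothionein genes Mt1 to Mt4, the metal-sensing transcription factor gene Mtf1, the copper pump genes Atp7a and Atp7b, and the copper chaperone genes Atox1 and Ccs. All 35 were listed in both libraries. Of these, 23 reached 1 FPKM in one library or both, and 7 were at 0 in both. FPKM counts fragments relative to transcript length and library size, so levels are per length.

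The study set out to find genes related to metastasis by comparing B16 with B16/BL6. B16 is a melanoma line from a C57BL/6 mouse and B16/BL6, called the subline below, an invasive derivative of it, both labelled as strain C57BL/6 and cultured without any treatment. B16 was kept in DMEM and B16/BL6 in RPMI, each with fetal bovine serum and penicillin/streptomycin, so a difference of line and one of medium cannot be told apart. Each line gave 1 library, so the differences below have no replicate check, the spread between cultures is unknown and no test was possible.

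All 9 melanocyte markers examined were at 10.6 FPKM or more in both libraries, up to 6160 FPKM for Mlana. Markers of other cell types were close to 0: none of 5 fibroblast, 5 endothelial and 5 keratinocyte markers reached 1 FPKM, and of 5 leukocyte markers only Cd68 did (2.83 FPKM in B16 and 1.23 in B16/BL6), with Ptprc at 0.018 and 0.081 FPKM. The abundant control Actb was at 1789 and 1747 FPKM. The depth is not recorded, but 150 of 379 genes under 0.1 FPKM shared 1 ratio of B16/BL6 to B16, 0.906, which would make the subline the deeper library by 1.10 times.

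Zinc is a structural or catalytic part of many proteins, and copper a cofactor of a smaller set of enzymes. Cells keep the unbound ions of both metals scarce. Transporters of the Slc39a family (ZIP) bring zinc into the cytosol, from outside or from organelles. Most of those of the Slc30a family (ZnT) move zinc out of the cytosol. Metallothioneins are small cysteine-rich proteins that bind zinc and copper, and their genes are switched on when zinc activates the factor MTF-1 at metal response elements in their promoters. Copper enters through CTR1 and is handed by chaperones to its users, among them the pump ATP7A, which loads copper into enzymes of the secretory pathway. In melanocytes this includes tyrosinase, the copper enzyme that starts melanin synthesis.

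None of the 23 measured zinc and copper genes differed by 2-fold or more between the lines, measured on log2(FPKM + 1), a scale that shrinks the differences of genes near 0. Over all 10709 genes that reached 1 FPKM in either library, 6.46% did, 3.31% higher in the subline and 3.16% lower. At that rate a group of 23 would hold few such genes, so the count of 0 is near the background and sets the group apart in no way. By band of mean FPKM, the share of all genes past 2-fold was 13.8% under 5 FPKM, 5.47% from 5 to 20, 3.17% from 20 to 100 and 4.43% above, where the group had 3, 10, 6 and 4 genes. The log2 differences of B16/BL6 from B16 ran from -0.66 (Slc30a5) to 0.74 (Slc39a3), 11 above 0 and 12 below, with a median of -0.01, beside 0.01 over all genes. The median size of the difference, whatever its direction, was 0.22 for the 23 genes and 0.25 for all genes. In a bulk culture, fewer cells that express a gene and less RNA per cell cannot be told apart.

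**Figure D1:**
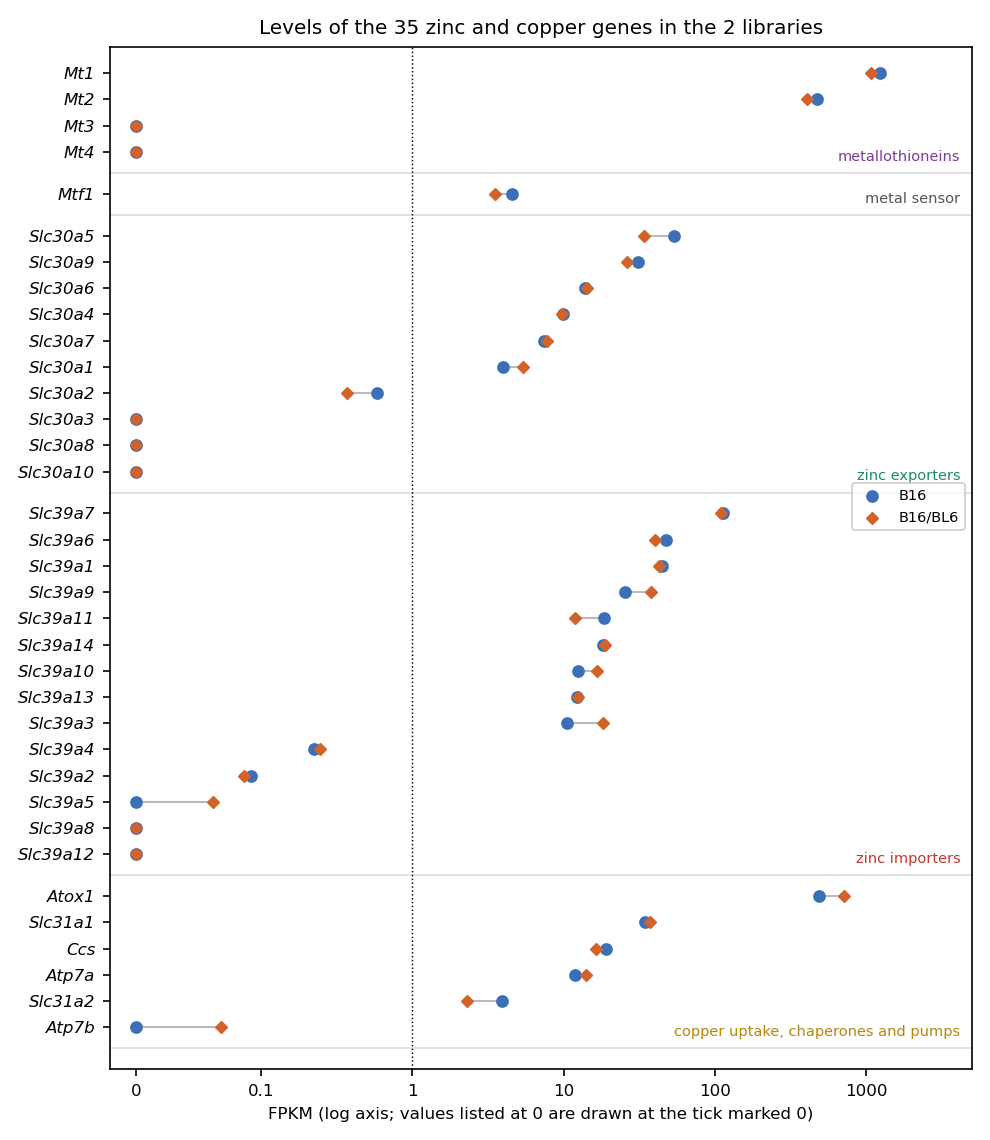
Level of each of the 35 genes in FPKM (log axis) in B16 (circles) and B16/BL6 (diamonds), 1 library each, grouped by role, with values listed at 0 drawn at the tick marked 0 and a dotted line at 1 FPKM. The pairs of symbols lie close together in every family, from Mt1 at 1238 and 1079 FPKM down to the 7 genes listed at 0 in both.

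**Figure D2:**
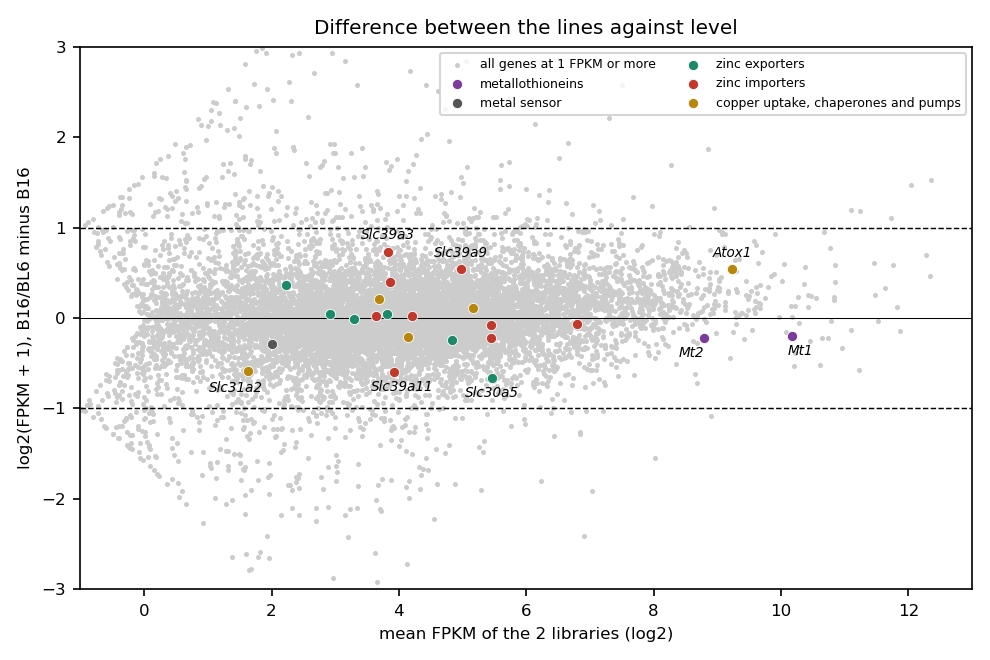
Difference in log2(FPKM + 1) of B16/BL6 from B16 against the log2 of the mean FPKM for all 10709 genes past 1 FPKM (grey) and the 23 zinc and copper genes (coloured by role). Dashed lines mark 2-fold, which none of the 23 reached, and 69 genes with differences beyond 3 lie outside the drawn range.

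Mt1 was the most abundant gene of the group, and the proportion of Mt1 to Mt2 was nearly the same in both libraries. Mt1 (chromosome 8, 94178883 to 94180327 in GRCm38, the assembly named mm10, as for all positions here) was at 1238 FPKM in B16 and 1079 in the subline, the 38th and 47th highest of all symbols. Mt2 (chromosome 8, 94172618 to 94173567) was at 475 and 408 FPKM, ranks 105 and 164. Both were slightly lower in the subline, at 0.87 and 0.86 times their B16 level (log2 differences of -0.20 and -0.22). Besides the deposited scale, 3 other treatments were used. On the TPM scale each library is rescaled to a sum of 1000000, and the median of all genes shifts to -0.16. The others were upper-quartile scaling and subtraction of the median difference of the chromosome, called centring below. All 3 lower the differences of both genes, so their direction could not have changed and this was no check of it. The ratio of Mt1 to Mt2 within a library, which does not depend on how the libraries were scaled, was 2.61 in B16 and 2.64 in the subline. Mt3 and Mt4, the forms best known from brain and from squamous epithelium, were listed at 0 in both libraries.

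The 4 metallothionein genes lie side by side on chromosome 8 in 43124 bases, in the order Mt4, Mt3, Mt2 and Mt1, so that 2 genes listed at 0 and 2 very abundant ones are neighbours. Of the genes on either side, Bbs2 was at 4.10 FPKM in B16 and 1.65 in the subline, and Nup93 at 43.9 and 29.9. The main annotated transcripts of Mt1 and Mt2 are 549 and 511 bases long and share no identical stretch longer than 20 bases. For transcripts this short, FPKM depends strongly on the effective length used, which the sources used here do not state. An annotated antisense gene, Gm45774, overlaps Mt2, and whether counting used the strand is not stated.

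The promoters of Mt1, Mt2 and Slc30a1, the last a zinc exporter gene that MTF-1 also drives, were searched for the core of the metal response element. The core was spelled TGCACNC or TGCGCNC and searched on both strands of RefSeq windows from 250 bases before to 50 bases after the transcript start (GRCm38.p6). Matches are in capitals in the stretches below, which run 5′ to 3′ on the plus strand, the strand of all 3 genes. A match on the other strand reads GNGTGCA or GNGCGCA here. The Mt2 stretch ends at the base before the transcript start (chr8:94172368-94172617) and lies partly in an exon of the antisense Gm45774. The Mt1 stretches lie just before and at the transcript start of its window (chr8:94179055-94179084 and chr8:94179088-94179117), and the Slc30a1 stretch before that of its own (chr1:191906726-191906755). Both genes have other annotated starts: these stretches lie inside the full RefSeq span of the gene, and both Mt1 stretches overlap an annotated Mt1 exon.
Mt2: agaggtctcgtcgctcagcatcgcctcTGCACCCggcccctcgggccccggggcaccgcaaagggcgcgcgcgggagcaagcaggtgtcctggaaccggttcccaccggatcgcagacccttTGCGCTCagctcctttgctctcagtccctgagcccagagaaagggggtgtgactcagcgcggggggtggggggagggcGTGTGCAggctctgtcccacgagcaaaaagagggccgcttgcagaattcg
Mt1, before the start: cggtcccgctgTGCACACtggcgctccagg
Mt1, at the start: ctcTGCACTCcgcccgaaaagTGCGCTCgg
Slc30a1: aacgggggttccGAGTGCAaagcaaagttt

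Mt2 had 4 matches in its window, beginning 223, 128 and 50 bases before the start and at base 5 after it. Mt1 had 3 (23 bases before the start and at bases 3 and 21) and Slc30a1 had 2 (43 bases before the start and at base 31). Mt1 and Slc30a1 had 1 window each, so no window at their other annotated starts was searched. Their counts and positions hold for the start of that window only. Of all 32851 windows of this length, 25.7% held at least 1 match, 1.97% at least 3 and 0.517% at least 4. RefSeq windows were found for 30 of the 35 genes (35 windows, some genes having 2), with none for Ccs, Slc30a8, Slc39a4, Slc39a6 and Slc39a14. At least 1 match was in 19 of these 35 windows (54.3%), belonging to 18 genes, and 3 or more were in the windows of Mt1, Mt2, Slc30a4 and Slc30a10. The Slc30a10 window holds 2 matches that overlap, on opposite strands. A match was not tied to a high level: 10 of 20 genes past 1 FPKM with a window held one, and so did 8 of 10 under it, among them Mt3, Mt4, Slc30a3, Slc30a10 and Slc39a8, all listed at 0. A match of these letters is a description of the sequence, not a bound site.

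**Figure D3:**
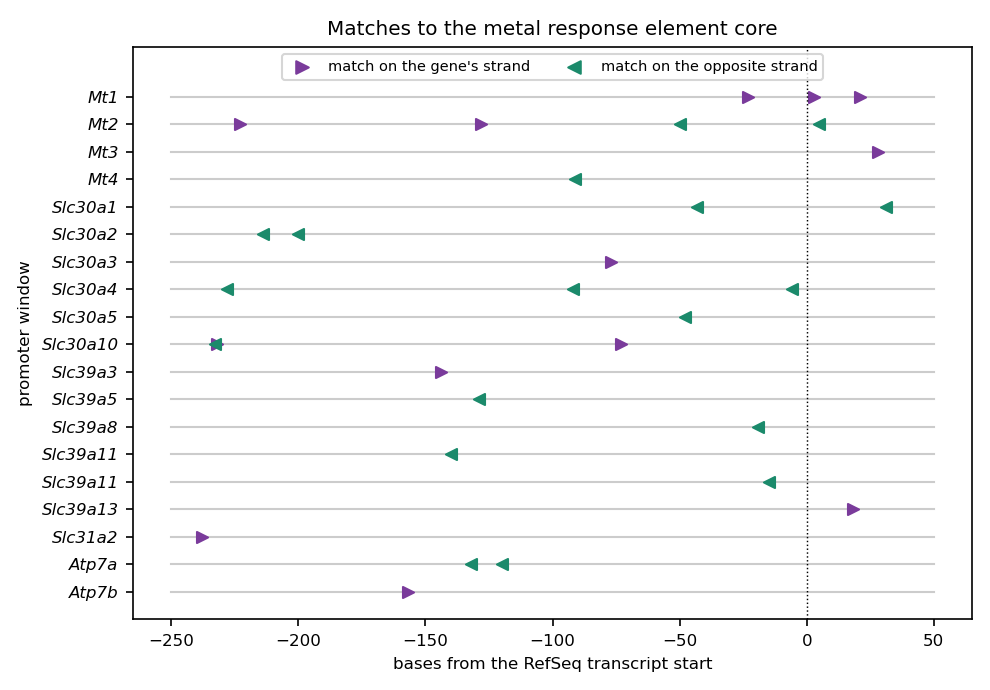
Position of each match to the core of the metal response element, in bases from the RefSeq transcript start, in the windows that hold one, with right-pointing triangles for the strand of the gene and left-pointing ones for the other. Mt2 holds 4 matches and Mt1, Slc30a4 and Slc30a10 hold 3, while Mt3 and Mt4 hold 1 each.

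The sensor itself was low. Mtf1 (chromosome 4, 124802549 to 124849800), which encodes MTF-1, was at 4.53 FPKM in B16 and 3.52 in the subline, a ratio of 0.78. It shares up to 721 bases of exon with the gene 1110065P20Rik on the opposite strand, which was at 40.9 and 37.5 FPKM. The list of genes known as MTF-1 targets had 8 measured members, of which 4 (Mt1, Mt2, Slc30a1 and Slc39a10) belong to the 35. Of the 8, 1 was past 2-fold upward in the subline and 1 downward, beside 6.46% of all genes in either direction, and the median was 0.19. The list gives no direction of regulation by MTF-1, so this median is no measure of MTF-1 activity. Ndrg1, a stress-responsive gene, was at 23.5 and 52.0 FPKM, and Csrp1, a LIM-domain protein gene, was at 649 and 306 FPKM. Sepw1, the selenoprotein W gene, was at 77.8 and 108 FPKM. Slc30a1 was at 1.36 times its B16 level in the subline, while both metallothioneins were under theirs.

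Of the 10 zinc exporter genes, 6 were past 1 FPKM, and they had the same order of levels in both libraries. Slc30a5 was the highest, followed by Slc30a9, Slc30a6, Slc30a4, Slc30a7 and Slc30a1. With 1 library per line it is not known which neighbours in that order differ by more than the spread between cultures. Slc30a3, Slc30a8 and Slc30a10, known for zinc in synaptic vesicles, zinc in insulin granules and manganese export, were listed at 0 in both. Slc30a2 was at 0.583 and 0.370 FPKM, which on the scale of single fragments is a ratio of 7 in the subline to 10 in B16.

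Slc30a5 (chromosome 13, 100802645 to 100833480) encodes ZnT5, which pairs with ZnT6 to load zinc into enzymes of the early secretory pathway. It was at 54.0 FPKM in B16 and 33.8 in the subline, a log2 difference of -0.66, the lowest of the group on the scale of the deposited values. Its partner Slc30a6 was at 13.8 and 14.3 FPKM, and Slc30a7, whose product ZnT7 serves the same compartment alone, at 7.45 and 7.74 FPKM. Both differences were under 0.05 on the log2 scale and changed sign on the TPM scale, that of Slc30a6 also after upper-quartile scaling and that of Slc30a7 also with chromosomes centred. The ratio of Slc30a5 to Slc30a6 within a library was therefore 3.91 in B16 and 2.36 in the subline. As a share of the summed FPKM of the 10 exporters, Slc30a5 held 44.7% in B16 and 34.6% in the subline. Each of the other 5 past 1 FPKM held a larger share in the subline than in B16. Shares of a family are bound to each other, so a lower share of Slc30a5 raises the rest by arithmetic. In FPKM, Slc30a9 (30.9 and 26.1) and Slc30a4 (9.87 and 9.80) were lower in the subline, and the other 3 were higher.

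The 376 measured genes of chromosome 13 had a median log2 difference of -0.32, the lowest of 20 chromosomes. With chromosomes centred, Slc30a5 was at -0.34. The part of the chromosome's shift in the Slc30a5 value was not tested.

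On the scale of the deposited values, each other exporter past 1 FPKM had a smaller difference than Slc30a5. With chromosomes centred, that of Slc30a1 was larger in size (0.42, beside -0.34). Slc30a1, which encodes ZnT1, the main zinc exporter of the plasma membrane, was low, at 3.99 FPKM in B16 and 5.41 in the subline (log2 difference 0.36). Its share of the exporters was 3.31% in B16 and 5.55% in the subline. Slc30a9, a mitochondrial zinc exporter gene, was at 30.9 and 26.1 FPKM, and Slc30a4, whose product loads zinc into vesicles, at 9.87 and 9.80 FPKM.

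**Figure D4:**
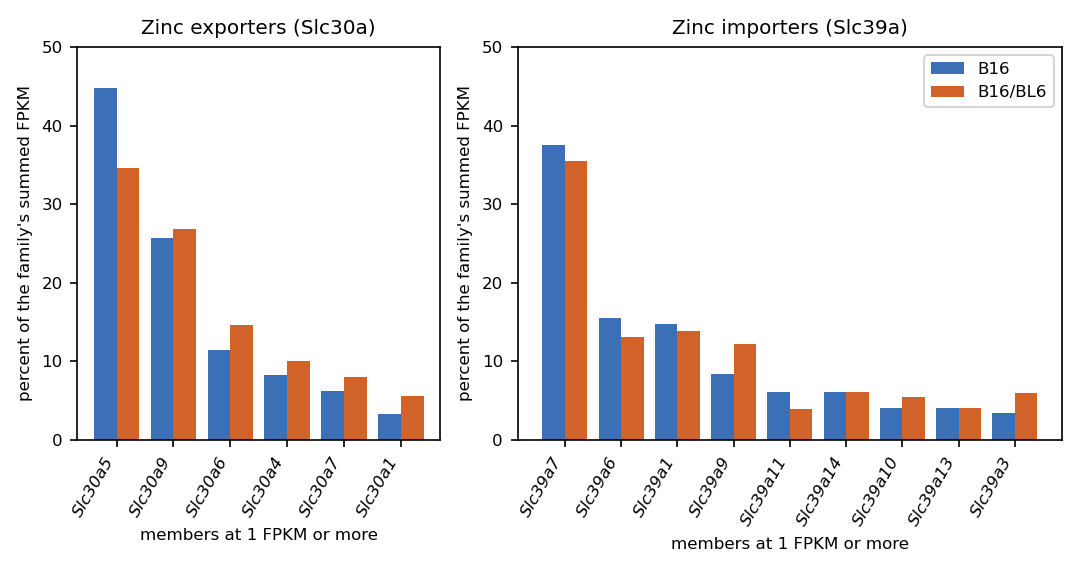
Share of each member past 1 FPKM in the summed FPKM of its family, in percent, for the zinc exporters (left) and zinc importers (right), with B16 in blue and B16/BL6 in orange and 1 library per bar. Slc30a5 fills 44.7% and 34.6% of the exporters and Slc39a7 37.5% and 35.5% of the importers.

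Of the 14 zinc importer genes, 9 were past 1 FPKM. Their summed FPKM was 304 in B16 and 307 in the subline, while that of the exporters was 121 and 97.4. Slc30a5 alone, at 54.0 and 33.8 FPKM, made up most of the exporters' difference. Past 1 FPKM, 3 exporters were higher in the subline and 3 lower, and 5 importers were higher and 4 lower. Slc39a7 (chromosome 17, 34028266 to 34031690), which encodes ZIP7, the channel that releases zinc from the endoplasmic reticulum, was the highest at 114 and 109 FPKM, and held 37.5% and 35.5% of the importers' sum. It shares up to 800 bases of exon with Gm20427, a noncoding gene on the same strand, so reads from the shared bases are uncertain in origin. Slc39a6 (47.2 and 40.3 FPKM) and Slc39a1 (44.8 and 42.3 FPKM), both genes of plasma membrane importers, came next and changed places between the libraries. Slc39a8 and Slc39a12 were listed at 0 in both, and Slc39a5 at 0 in B16 and 0.0484 FPKM in the subline. Slc39a4, the intestinal zinc importer gene, was at 0.224 and 0.244 FPKM, a ratio of 6 in the subline to 5 in B16 in single fragments, and Slc39a2 at 0.0852 and 0.0772 FPKM, a ratio of 1 to 1.

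On the scale of the deposited values, the largest difference of the group toward B16/BL6 was that of Slc39a3 (chromosome 10, 81028540 to 81037338), which encodes ZIP3, an importer of the plasma membrane. It was at 10.5 FPKM in B16 and 18.1 in the subline, a ratio of 1.73 and a log2 difference of 0.74. The ratio of Slc39a1 to Slc39a3, importers of the same subfamily, was 4.28 in B16 and 2.34 in the subline. The 528 measured genes of chromosome 10 had a median of 0.41, the highest of 20 chromosomes, and Slc39a3 was at 0.32 with each chromosome centred. As for Slc30a5, the part of the chromosome's shift was not tested.

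The order of the importers by size of difference depends on the scale. Slc39a9, the gene of the Golgi importer ZIP9, was at 25.5 and 37.6 FPKM (0.54, or 0.38 with chromosomes centred), but up to 459 bases of its exons overlap Erh on the opposite strand, which was at 28.3 and 36.1 FPKM and whose part in this value was not tested. Slc39a11, the ZIP11 gene, went the other way at 18.5 and 11.9 FPKM (-0.60, -0.50 with chromosomes centred and -0.78 on the TPM scale, the last 2 larger in size than the 0.32 and 0.59 of Slc39a3). Slc39a10, whose product forms a complex with that of Slc39a6, was at 12.4 and 16.7 FPKM (0.40, or 0.46 with chromosomes centred). The ratio of Slc39a6 to Slc39a10 was 3.796 in B16 and 2.41 in the subline. Slc39a6 lies on chromosome 18, whose 269 measured genes had a median of -0.29, and its own difference of -0.22 became 0.07 with chromosomes centred.

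Slc39a14, which encodes ZIP14, a carrier of zinc, iron and manganese, was at 18.3 and 18.7 FPKM. Slc39a13, the gene of a zinc carrier of intracellular vesicles, was at 12.3 and 12.5 FPKM. It shares 147 bases of exon with Psmc3 on the opposite strand, which was far more abundant, at 224 and 313 FPKM. The part of Psmc3 in the Slc39a13 value was not tested. The differences of Slc39a14 and Slc39a13, 0.03 and 0.02, changed sign on the TPM scale and after upper-quartile scaling.

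Among copper genes, the chaperone Atox1 stood out in level. Atox1 (chromosome 11, 55446637 to 55461208), which carries copper from the importer to the pumps, was at 489 FPKM in B16 and 712 in the subline, ranks 101 and 82 among all symbols. Its log2 difference was 0.54, 0.37 on the TPM scale, and 0.64 with chromosomes centred, where it was the largest of the 23. The Atox1 transcript is 541 bases long, so the remark on short transcripts holds for it too. The pump gene Atp7a (chromosome X, 106027224 to 106128161) was at 11.9 and 13.97 FPKM, and its liver counterpart Atp7b was listed at 0 in B16 and at 0.0547 FPKM in the subline. Ccs, which encodes the chaperone that loads copper into superoxide dismutase, was at 18.99 and 16.3 FPKM. The ratio of Atox1 to Ccs was 25.7 in B16 and 43.6 in the subline, and that of Atox1 to Atp7a 41.1 and 51.0.

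The copper importers lie on chromosome 4, 62170 bases apart, and differed in level. Slc31a1 (62360583 to 62391769), which encodes the high-affinity importer CTR1, was at 34.4 FPKM in B16 and 37.2 in the subline. Slc31a2 (62280393 to 62298412), the CTR2 gene, whose product acts in endosomes and lysosomes, was at 3.92 and 2.29 FPKM (-0.58, or -0.29 with a pseudocount of 5). The ratio of Slc31a1 to Slc31a2 was 8.77 in B16 and 16.3 in the subline. Slc31a1's own difference, 0.11, changed sign on the TPM scale.

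The enzymes that use copper were taken as a list of their own. Of 18 measured copper enzyme genes, 7 were past 1 FPKM, with 2 past 2-fold upward in the subline and 2 downward, and with a median of 0.34. Over all genes these shares were 3.31% and 3.16%, and 13.8% passed 2-fold in either direction under a mean of 5 FPKM, the band of Sod3. Whether this list differs from the genes that supply copper was not tested. Tyr, the tyrosinase gene, was at 10.6 and 164 FPKM, so its ratio to Atp7a, the gene of the pump that supplies it with copper, was 0.891 in B16 and 11.8 in the subline. Cp, the gene of the copper oxidase ceruloplasmin, was at 5.39 and 15.3 FPKM. The 2 lower genes were Pam, which encodes an enzyme that amidates peptide hormones (15.02 and 5.96 FPKM), and Sod3, the extracellular superoxide dismutase gene (4.78 and 1.34 FPKM). Sod1, the cytosolic superoxide dismutase gene and the client of Ccs, was at 239 and 335 FPKM, and its ratio to Ccs was 12.6 in B16 and 20.5 in the subline.

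**Figure D5:**
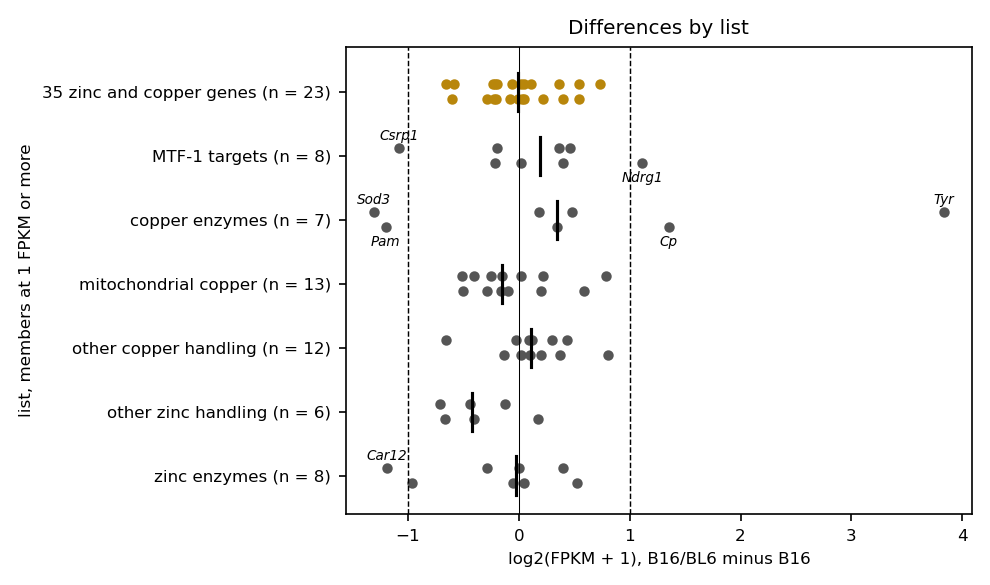
Difference in log2(FPKM + 1) of B16/BL6 from B16 for the members past 1 FPKM of the 35 zinc and copper genes and of 6 further lists, with 1 point per gene, bars at the medians and dashed lines at 2-fold. All 23 zinc and copper genes lie within 2-fold, while Tyr, Cp, Sod3 and Pam of the copper enzymes lie beyond it, Tyr at 3.83. Mt1, Mt2, Slc30a1 and Slc39a10 are drawn both among the 23 and among the MTF-1 targets.

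None of the 13 measured genes of copper delivery inside the mitochondrion reached 2-fold, beside 6.46% of all genes. At that rate a list of this size would hold few. Of the 13, 5 were above 0 and 8 below, with a median of -0.15. Over all genes 5415 were above 0 and 5294 below, with a median of 0.01. Slc25a3, the gene of the carrier that brings phosphate and copper into the matrix, was at 404 FPKM in B16 and 696 in the subline. The assembly genes of cytochrome c oxidase Cox16 and Cox11 were at 12.1 and 18.7 FPKM and at 13.7 and 9.28 FPKM. Among 12 other copper-handling genes past 1 FPKM, none reached 2-fold, again beside 6.46% of all genes, and the median was 0.11. Steap1, of the metalloreductase family, was at 5.48 and 10.3 FPKM, its relative Steap3 at 57.3 and 35.9 FPKM, and Cutc at 7.82 and 10.9 FPKM.

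Of 6 further zinc-handling genes past 1 FPKM, none reached 2-fold and 5 were below 0, with a median of -0.42. Over all 10709 genes, 6.46% reached 2-fold, a rate at which a list of 6 would hold few. Of all genes 5294 were below 0, and the median was 0.01. Whether this list differs from all genes was not tested. Tmc6 and Tmc8, whose products bind ZnT1, were at 57.4 and 35.9 FPKM and at 15.8 and 9.26 FPKM. The metal ion transporter gene Slc11a2 was at 49.6 and 36.4 FPKM.

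At 1.5-fold, a limit chosen after the values were seen, 3 of the 23 genes differed, Slc39a3 upward and Slc30a5 and Slc39a11 downward, beside 17.9% of all genes (9.38% upward and 8.56% downward). Between the libraries, the levels of the 23 genes had a Spearman's rho of 0.94, beside 0.95 over all 10709 genes. Both are descriptions across genes, which are not independent. Among the 10 genes of the group with a mean of 5 to 20 FPKM, the median size of the log2 difference was 0.13, beside 0.25 for the 3931 genes of that band. Among the 6 genes from 20 to 100 FPKM it was 0.23, beside 0.22. For the 3 genes under 5 FPKM it was 0.36, beside 0.33, and for the 4 at 100 FPKM or more 0.21, beside 0.26.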

How the data were processed

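Polyadenylated RNA of 1 culture each of B16 and B16/BL6 was sequenced from a stranded Illumina kit, per the labels' protocols. The deposited values are FPKM per gene symbol, per the file headers. The build mm10 and the tools Cufflinks 2.2.1, TopHat2 2.0.13, SAMtools 0.1.19 and Bowtie2 2.2.3 are named, without roles, per the submitters' processing notes. Neither the annotation, the strand setting, the effective lengths, the treatment of reads with several matches nor any read count is given in the sources used here, so the depth is unknown and no interval was computed.

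FPKM is no count, so no count test was run. Differences are log2(FPKM + 1) of the B16/BL6 library minus the same of B16. Genes that reached 1 FPKM in either library were counted (23 of the 35, and 10709 in all), and called at 2-fold. No ratio is given against a value listed at 0. Positions came from RefSeq (GRCm38.p6), which placed 23040 symbols and all 35 members, and transcript lengths and exon overlaps from GENCODE M21. The alternatives were pseudocounts of 0.1 and 5, no minimum or one of 5 FPKM, the TPM scale, upper-quartile scaling and centring by chromosome. Calls and rescaling were tested on simulated data. Python 3.11.15, pandas 2.3.3, numpy 2.4.6 and scipy 1.17.1 were used.

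The members and all lists were chosen with earlier results of these data known. Named genes were every member and, of each further list, those past 2-fold or up to 3 with the largest differences. Sod1, Car14, Alpl and the neighbouring or overlapping genes were added with their values in view.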

Additional observations from a re-analysis of the deposited data

How the results depend on the processing

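The count of zinc and copper genes past 2-fold was 0 in each direction under all 7 alternatives. No minimum, a minimum of 5 FPKM and a pseudocount of 5 could not have raised that count, so they do not test it. The median log2 difference of the zinc and copper genes, -0.01, stayed within 0.1 of that value under 6 of the alternatives. It was -0.20 on the TPM scale, where 24 members passed the minimum (-0.17 over the same 23) and the median of all genes was -0.16. That scale turned the split of all genes from 354 higher and 338 lower into 369 and 583, and a pseudocount of 5 left 151 and 118, one of 0.1 gave 492 and 511, and a minimum of 5 FPKM 246 and 212. The sign changed for 5 of the 23 genes on the TPM scale, for 3 after upper-quartile scaling and for 5 with chromosomes centred. These treatments shift all genes, or all of a chromosome, about alike. Differences smaller than the shift and opposite to it in direction therefore change sign by construction. With chromosomes centred, Slc30a5 stood at -0.34 and Slc39a3 at 0.32, and the lowest and highest members became Slc31a2 (-0.58) and Atox1 (0.64). The pseudocount weighed on low genes, Slc31a2 being at -0.75 with 0.1 and -0.29 with 5. Leaving the members under 1 FPKM out of a family moved no share by more than 0.218 percentage points. At 1.5-fold, the 3 genes became 1 with a pseudocount of 5 and with chromosomes centred, and 4 with a pseudocount of 0.1, on the TPM scale and after upper-quartile scaling. No paired analysis was possible because each line has 1 library, and none could be left out. Values under 1 FPKM rest on few fragments.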

Other observations

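Zinc enzymes of the secretory pathway and the carbonic anhydrases, most of which bind zinc in their active site, were taken as a list of their own. Of 18 measured genes, 8 were past 1 FPKM, 1 of them at least 2-fold lower in the B16/BL6 subline and 0 higher, with a median log2 difference of -0.03. Over all genes 3.16% were lower and 3.31% higher, and 13.8% passed 2-fold under a mean of 5 FPKM, so the count is near the background. The lower gene was Car12, a carbonic anhydrase of the cell surface, at 1.45 FPKM in B16 and 0.0702 in the subline. Car9, another one of the cell surface, was at 1.97 and 0.516 FPKM and stayed just under 2-fold with the pseudocount (-0.97). The cytosolic Car13 was at 24.4 and 35.4 FPKM. The most abundant of the list was Car14, at 265 and 256 FPKM. Alpl, the gene of a zinc-dependent phosphatase that ZnT5 and ZnT6 are known to supply, was at 0.039 FPKM in B16 and at 0 in the subline. Car14 and Alpl were named with their values in view.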
